A study of Mus musculus with 9 samples.

Results

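The 662 regions described here were open in basal cells and in oestrogen receptor positive (ER+) luminal cells of the mouse mammary gland, and low in oestrogen receptor negative (ER-) luminal cells, both at puberty and in adults. They were taken from 124860 regions of accessible chromatin and make up 0.53% of them. Values were put on a log2(value + 1) scale. A region was kept when, at puberty and again in adults, its ER- luminal value lay at least 1 below that of basal and of ER+ luminal cells on this scale, and when the basal and ER+ luminal values were at least 20 at both stages. The distance between ER- luminal cells and the lower of the other types is called the gap. Of all regions, 28819 were past the level of 20, and 2.3% of these also had the gap at both stages. The regions were thus chosen by their puberty and adult values, and the distance of ER- luminal cells from the others at those stages is a description with no test, while the pregnancy values took no part in the choice.

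Chromatin was profiled by ATAC-seq, which uses the transposase Tn5 to insert sequencing adapters where DNA is accessible. Per the labels, cells were sorted by FACS from glands at puberty, in adulthood and at mid pregnancy, as basal cells, ER+ luminal cells and ER- luminal cells. All 9 libraries came from mice of the genotype ERrtTA/TetOCre/rosaYFP, whose names stand for an rtTA transactivator tied to ER, a Tet-responsive Cre and a YFP reporter at the Rosa locus, so every group carries these alleles. Each combination of cell type and stage had 1 library, so no value within a cell type and stage has a replicate, and the labels do not say how many mice were pooled for a library. The labels give 100000 sorted cells per reaction and state neither the ages nor the gestation days in the fields used here.

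Basal cells are the contractile outer layer of the ducts and carry the myoepithelial programme. ER+ luminal cells sense the ovarian hormones and signal to their neighbours, and ER- luminal cells hold progenitor activity and give most of the milk-producing alveolar cells in pregnancy. The luminal types line the same lumen, and the regions described here pair one of them with the basal layer. Open chromatin in ATAC-seq marks promoters, enhancers and other regulatory DNA where proteins have displaced nucleosomes. The deposited table names regions by a running number only. Genes, coordinates, sequences and marker genes of the cell types were therefore not analysed here, and the sorted types are called by their labels.

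The deposited values moved in equal steps within a library and were taken as reads per region divided by a factor for each library. All read counts given here rest on that reading. From 2186941 reads in regions (basal, pregnancy) to 11328189 (ER+ luminal, puberty) stood behind a library, and 1 read was worth 0.526 to 2.199 units of signal. The 3 pregnancy libraries were the shallowest, with at most 3418164 reads. Over all regions, the ER+ luminal pregnancy library had a Pearson r of 0.768 with the ER- luminal pregnancy library, against 0.708 with ER+ luminal cells at puberty and 0.699 with those in adults. With ER- luminal cells at puberty and in adults r was 0.744 and 0.732, also above its values with its own type. With basal cells r was 0.718 at puberty, 0.676 in adults and 0.695 in pregnancy. Across regions these values are a description, since regions are not replicates. The share of regions with a pregnancy gap of at least 1 and the counts of limma calls are given with and without it. Most other results that use ER+ luminal pregnancy values are given only with it.

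At puberty, the 662 regions had a median signal of 54.6 in basal cells. The median was 63.6 in the ER+ luminal library and 13.6 in the ER- luminal one. In adults the medians were 67.9, 59.0 and 11.9 in the same order. The regions were thus low rather than empty in ER- luminal cells. No region lacked a read there at puberty, 1 did in adults, and the medians stood for 19 and 16 reads. The ER- luminal values reached from 0.717 to 171 at puberty and from 0 to 161 in adults, and the highest of them lay well above the medians of the open cell types. Regions with no ER- luminal read at both stages did not occur among the 662. The median gap was 1.48 at puberty and 1.79 in adults on the log2 scale, and 69 regions had a gap of at least 2 at both stages.

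**Figure D1:**
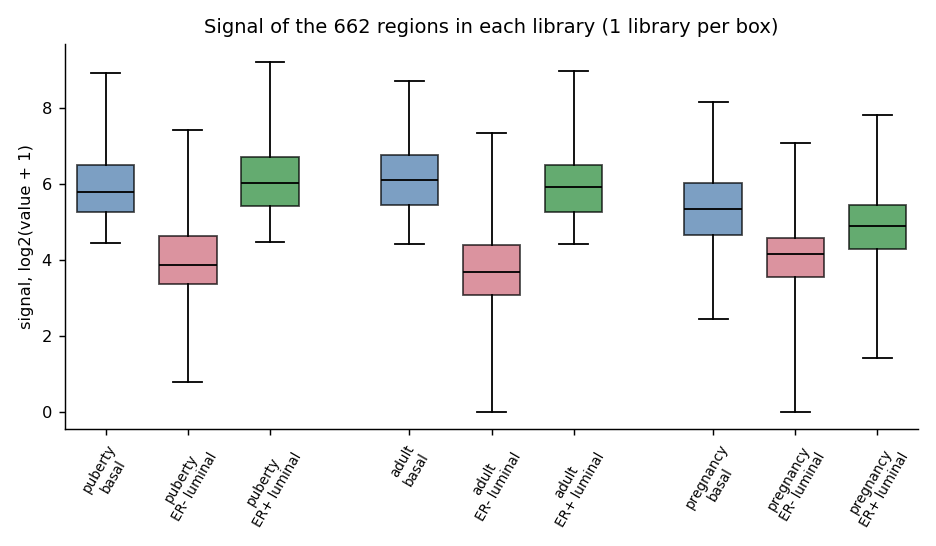
Signal of the 662 regions as log2(value + 1), 1 box per library, with the median as a line, the quartiles as the box and the lowest and highest region as whiskers. ER- luminal medians are the lowest at every stage, with 13.6, 11.9 and 16.7 units at puberty, in adults and in pregnancy, and the distance to the other types is smallest in pregnancy, where ER+ luminal cells have a median of 28.8.

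Ranked by the smaller of the puberty and adult gaps, 3 regions came first. Region merged63833 had 225, 153 and 174 in the basal libraries at puberty, in adults and in pregnancy, 209, 162 and 91.5 in the ER+ luminal ones, and 16.5, 8.91 and 13.7 in the ER- luminal ones. Its ER- luminal values lay below all 6 others. Region merged7260 was dimmer, with 41.2, 71.8 and 26.4 in the basal libraries, 24.2, 43.6 and 15.3 in those of ER+ luminal cells and 1.43, 2.97 and 0 in those of ER- luminal cells. The 0 in pregnancy was taken to allow up to 3 reads, worth 4.55, which is a fixed setting and not a counting interval. Region merged107483 had 93.4, 126 and 41.8 in basal cells, with 73.1, 50.5 and 32.2 for the ER+ luminal type and 7.17, 4.46 and 10.6 for the ER- luminal type. In these 3 regions the ER- luminal cells stayed lowest in pregnancy as well.

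The brightest of the 662 regions were partly closed rather than shut in ER- luminal cells. Region merged28148 had 484, 418 and 273 in basal cells at puberty, in adults and in pregnancy. ER+ luminal cells had 595, 496 and 226 there, and ER- luminal cells 163, 161 and 135. Region merged73425 had 226, 246 and 209 in basal cells, 538, 399 and 151 in the ER+ luminal libraries and 111, 77.3 and 59.2 in the ER- luminal libraries. Both kept ER- luminal cells lowest at each stage. Region merged71144 did so too, with 89.5 against 109 in ER+ luminal and 286 in basal cells in pregnancy. Region merged48880 lost the difference to ER+ luminal cells in pregnancy, where it had 102 in each luminal type and 180 in basal cells.

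The threshold cut through a continuum of values. The 3 regions just inside, merged34307, merged71095 and merged117019, had gaps of 1.0004, 1.0004 and 1.0005 at the stage of the smaller gap. The 3 just outside, merged25820, merged56675 and merged36432, had 0.9979, 0.9975 and 0.9971. Region merged56675, just outside, had a pregnancy gap of 2.40.

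Pregnancy was the stage held out from the choice, and the low state of ER- luminal cells was seen there in part. The ER- luminal value was at least 1 below both other types in 183 of the 662 regions, or 27.6%, where 8.25% of all regions met the same condition. Among the 28157 other regions past the level, 1.91% met it. A gap of at least 2 was seen in 22 regions (3.32%), against 1.69% of all regions and 0.181% of the others past the level. The ER- luminal value was the lowest of the 3 types in 508 regions, or 76.7%, against 31.3% and 19.9%. It was the highest in 15 regions, or 2.27%, against 33.0% and 49.3%. No region had an ER- luminal value at least 1 above both other types, against 4.42% and 1.9%. With 1 library per cell type and stage these shares have no test over samples.

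The median gap in pregnancy was 0.53, with quartiles of 0.05 and 1.05, so the typical region was less than 2-fold lower in ER- luminal cells. Over all regions the median gap was -0.41, and over the other regions past the level it was -0.45. Low counts widen these values. The median region had 11 reads in the ER- luminal pregnancy library, against 18 for basal and 17 for ER+ luminal cells. In 62 of the 662 regions, or 9.37%, the exact 95% counting interval in ER- luminal cells lay wholly below those of both other types, against 0.337% of all regions and 0.632% of the others past the level. These intervals cover counting error only.

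**Figure D2:**
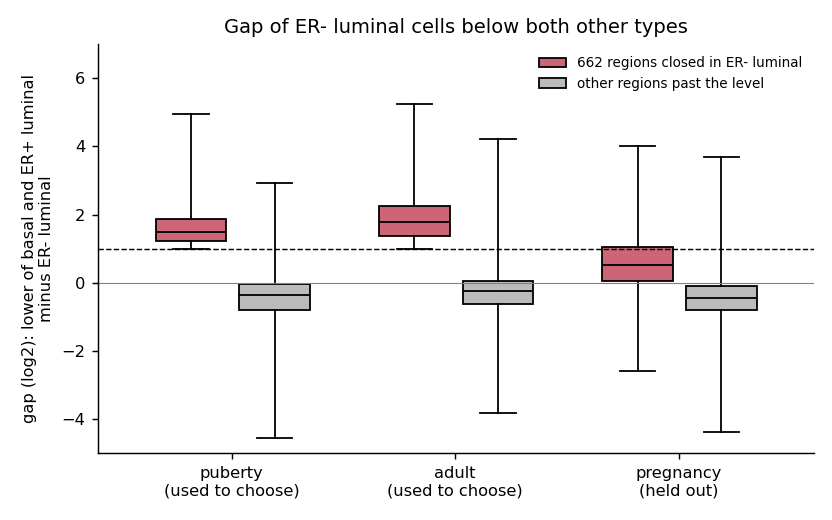
Gap in log2 units, the lower of the basal and ER+ luminal values minus the ER- luminal value, for the 662 regions (red) and for the 28157 other regions past the level (grey), with median, quartiles and the lowest and highest region. The red boxes sit above the dashed line at 1 by choice at puberty and in adults, and in pregnancy, which was held out, their median is 0.53 against -0.45 for the grey box.

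In pregnancy ER- luminal cells stood further below basal than below ER+ luminal cells, a contrast with no test over samples. In all, 409 of the 662 regions, or 61.8%, were at least 1 higher in basal than in ER- luminal cells. The share was 19.7% over all regions and 7.25% over the others past the level. ER+ luminal cells were at least 1 higher than ER- luminal cells in 239 regions, or 36.1%, against 18.8% and 5.05%. While 183 regions met the condition against both types, 226 met it against basal cells only, 56 against ER+ luminal cells only and 197 against neither. The median difference from ER- luminal cells was 1.24 for basal and 0.68 for ER+ luminal cells. Leaving out the ER+ luminal pregnancy library leaves the comparison with basal cells, and leaving out the basal one that with ER+ luminal cells. Each drops a condition, so the shares can only be higher than 27.6%, as they are over all regions. The part of the ER+ luminal pregnancy library's profile in the result was not tested.

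**Figure D3:**
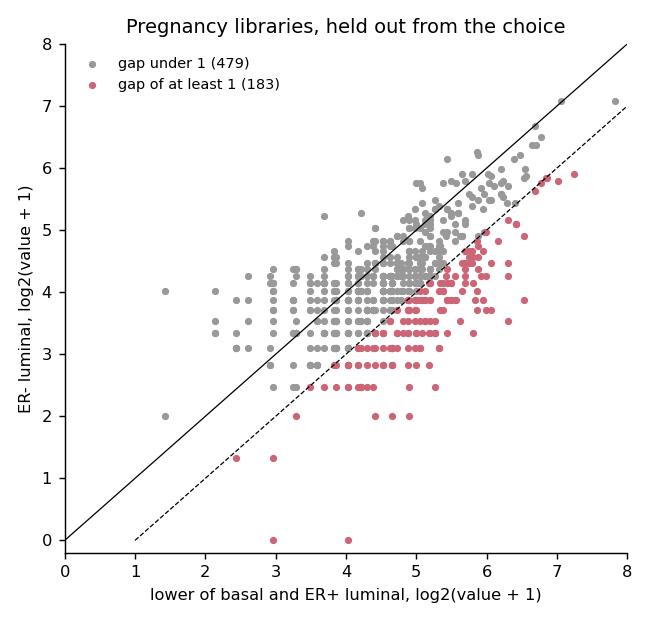
Each point is 1 of the 662 regions in the pregnancy libraries, with the lower of the basal and ER+ luminal values on the x axis and the ER- luminal value on the y axis, both as log2(value + 1). The 183 red points lie on or below the dashed line of a gap of 1, and 508 points in all lie below the solid line of equal values.

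The 6 regions with the largest pregnancy gaps, among those with at least 20 in basal and ER+ luminal cells in pregnancy, were merged29541, merged56278, merged117106, merged63833, merged46440 and merged20136. Region merged29541 had a pregnancy signal of 33.0 in basal cells, 28.8 in the ER+ luminal library and 3.03, from 2 reads, in the ER- luminal library. Region merged56278 had 37.4, 57.6 and 4.55 in the same order, after 114, 112 and 2.23 in adults and 60.9, 76.3 and 7.89 at puberty. Region merged117106 rested on more reads. It had 81.4, 78.0 and 10.6 in pregnancy, and the ER+ luminal value was 7.34 times the ER- luminal one, with a counting interval of 3.29 to 19.3. In merged63833 the same ratio was 6.71, with an interval of 3.28 to 15.4. Region merged46440 had 24.2, 25.4 and 3.03, and merged20136 had 55.0, 61.0 and 9.10. The regions were picked on these counts, so the intervals describe their precision and are no test.

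At the other end, among regions with an ER- luminal pregnancy value of at least 20, the 6 with ER- luminal cells furthest above both other types in pregnancy differed little. Region merged106226 had 24.3 in the ER- luminal library, 13.2 in the basal and 13.6 in the ER+ luminal one, after 20.1, 42.6 and 63.3 in adults. Region merged13772 had 22.8, 13.2 and 13.6, after 7.43, 47.4 and 90.7 in adults. Region merged19035 had 27.3, 15.4 and 18.7, after 11.9, 55.2 and 31.6. In merged112377, merged117621 and merged71492 the ER- luminal value was 1.18, 1.07 and 1.06 times the higher of the others. For all 6 the counting interval of that ratio included 1, so none showed a reversal of the order beyond counting error. The ER- luminal counting interval lay wholly above those of both other types in 0 of the 662 regions. The shares were 2.82% of all regions and 7.77% of the others past the level.

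**Figure D4:**
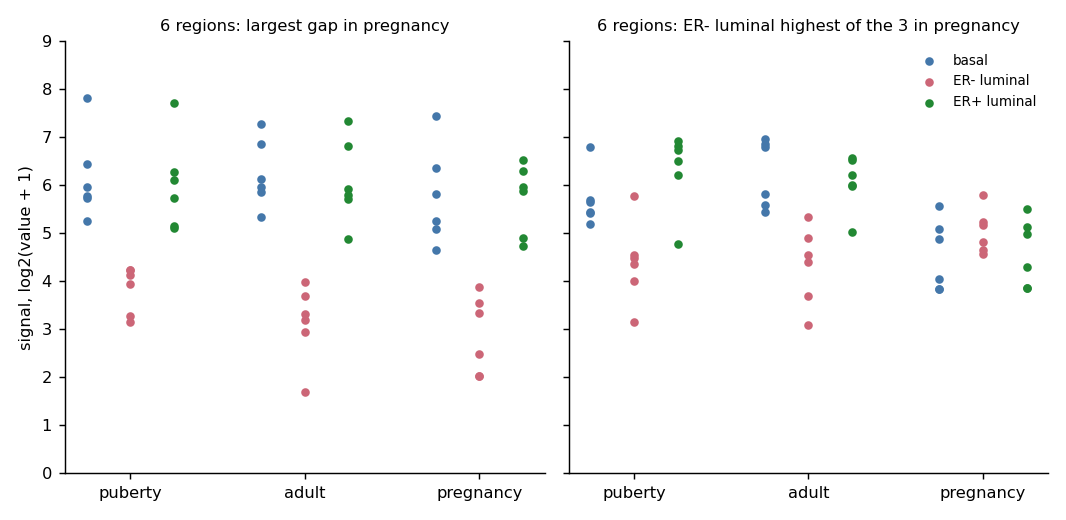
Signal as log2(value + 1) at each stage for, left, the 6 regions with the largest pregnancy gap among those with at least 20 in the open types and, right, the 6 with ER- luminal cells furthest above the others in pregnancy among those with at least 20 in ER- luminal cells, 1 point per region and library. On the left the red ER- luminal points stay below the others of their region at all stages, and on the right they mix with them in pregnancy, as in merged112377, where ER- luminal cells had 54.6, basal cells 46.2 and ER+ luminal cells 44.1.

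Taken as they stand, the values of the open cell types fell more than those of ER- luminal cells rose as the gap narrowed in pregnancy. From adult to pregnancy the median changed from 59.0 to 28.8 in ER+ luminal cells, from 67.9 to 39.6 in basal cells and from 11.9 to 16.7 in ER- luminal cells. The median log2 changes were -1.01, -0.75 and 0.35. Over all regions they were -0.05, -0.03 and 0.03, and over the other regions past the level -0.33, -0.53 and -0.17. In those others all 3 types thus had a lower median, ER- luminal cells included, and much of the basal fall was shared with them. The ER+ luminal change rests on the pregnancy library that correlated more with ER- luminal libraries than with its own type. The choice asked for high early values in basal and ER+ luminal cells and low ones in ER- luminal cells, so part of these changes is set by it. In 342 of the 662 regions, or 51.7%, ER- luminal cells were higher and both other types lower than in adults, as in 11.2% of all regions and in 3950 of the 28157 others past the level. In 200 regions, or 30.2%, all 3 types were lower, against 18.3% of all regions and 45.7% of the others past the level.

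ER+ luminal cells were at least 2-fold lower in pregnancy than in adults at 338 of the 662 regions, or 51.1%. The share was 22.3% over all regions and 20.8% over the others past the level. At least 2-fold higher values were seen at 0 regions, against 24.4% and 1.94% in the same order. Basal cells were at least 2-fold lower at 229 regions, or 34.6%, against 15.4% and 19.5%. They were higher at 6, or 0.906%, against 19.3% and 1.04%. Rises of at least 2-fold in these types were thus rare in all regions past the level, not only in the 662. ER- luminal cells were at least 2-fold higher at 131, or 19.8%, against 15.4% and 1.27%. They were lower at 33, or 4.98%, against 10.5% and 8.54%. The ER- luminal share of 19.8% thus lay near that of all regions and above that of the others past the level. The choice asked for low early ER- luminal values in the 662 regions only, so the second contrast is set by it in part. Measured from puberty, ER- luminal cells had a median change of 0.07, with 351 regions higher and 311 lower, while ER+ luminal cells had -1.21 and basal cells -0.52. Over the others past the level these changes were -0.36, -0.46 and -0.45 in the same order. At 139 regions, or 21.0%, ER+ luminal cells alone differed at least 2-fold between adult and pregnancy, being lower, against 9.4% of all regions and 10.3% of the others past the level. At 60 regions, or 9.06%, ER- luminal cells alone did, being higher, against 3.77% and 0.714%.

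Choosing regions at 1 stage left the other early stage held out beside pregnancy. Of 1568 regions that met the rule at puberty alone, 48.6% had a gap of at least 1 in adults and 19.6% in pregnancy, with median gaps of 0.97 and 0.32. Of 2505 regions that met it in adults alone, 31.8% had such a gap at puberty and 22.3% in pregnancy, with medians of 0.56 and 0.35. Over all regions the shares were 7.82% at puberty and 7.62% in adults. The held-out gap was therefore larger at the other early stage than in pregnancy in both cases, and smaller at either than at the stage of choice.

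Across the 662 regions the gap at puberty and in adults had a Pearson r of 0.205, the gap in adults and in pregnancy 0.148, and the gap at puberty and in pregnancy 0.0791, each a description over regions that share the same libraries and, in part, the limits of the choice. With the regions ranked by early gap and cut into 3 groups of like size, 24.0% of those with the smallest, 26.4% of the middle ones and 32.6% of those with the largest early gaps still had a gap of at least 1 in pregnancy. Of the 69 regions with an early gap of at least 2 at both stages, 29 did, or 42.0%. By early level of the open types the shares were 29.4%, 27.7% and 25.8% from the dimmest to the brightest group. The 183 regions that kept the gap and the 479 that did not had like early medians, for example 65.5 and 69.5 in adult basal cells and 11.1 and 11.9 in adult ER- luminal cells. In pregnancy their basal medians were 41.8 and 37.4, their ER+ luminal medians 35.6 and 23.7, and their ER- luminal medians 12.1 and 18.2, a difference that the split itself fixes.

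The rule set basal and ER+ luminal cells each against ER- luminal cells and did not use the difference between them. At puberty ER+ luminal cells were the higher of these in 398 of the 662 regions (60.1%), in adults in 267 (40.3%) and in pregnancy in 195 (29.5%). Over all regions the shares were 48.6%, 49.9% and 49.7%, and over the others past the level 44.8%, 36.1% and 48.0%. The median log2 difference of ER+ luminal minus basal cells was 0.19, -0.20 and -0.50 at these stages. Basal cells were higher at all 3 stages in 192 of the 662 regions and ER+ luminal cells in 106, against 29.8% and 28.7% of all regions. The values lay within 2-fold of each other in 77.2% of the regions at puberty, 77.6% in adults and 65.1% in pregnancy. Over all regions these shares were 42.3%, 39.4% and 61.6%, and over the others past the level, which share the condition of at least 20 in both types, 71.9%, 74.5% and 83.1%.

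In a limma fit to all 9 libraries with additive terms for cell type and stage, 83 of the 662 regions differed between ER+ luminal and basal cells at a Benjamini-Hochberg adjusted p under 0.05 over all regions. ER+ luminal cells were higher at 22 of them, or 3.32%, where 17.1% of all regions were called, and lower at 61, or 9.21%, where 18.6% were. The choice asked for at least 20 in both types, which leaves out regions closed in one of them, so shares below those of all regions are set by it in part. The order of the directions rested on the ER+ luminal pregnancy library. Without it 118 regions were called, 74 of them higher in ER+ luminal cells and 44 in basal cells. Library weights gave 136 calls, of which 47.8% were higher in ER+ luminal cells in place of 26.5%. Without the puberty basal, adult basal or adult ER+ luminal library the 83 calls became 52, 21 and 38.

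Among the regions called higher in ER+ luminal cells, merged69045 had 94.1, 139 and 32.2 there and 25.3, 21.3 and 4.40 in basal cells at puberty, in adults and in pregnancy (log2 difference 2.38, SE 0.57, limma adjusted p = 0.00274). The ER+ luminal values all lay above the basal ones. In merged92049 they were 235, 121 and 72.9 against 53.0, 25.3 and 15.4 (log2 difference 2.17, SE 0.39, limma adjusted p = 0.000228), again without overlap. In merged90649 they were 109, 211 and 125 against 40.4, 74.97 and 19.8 (log2 difference 1.83, SE 0.38, limma adjusted p = 0.000757). The regions were picked as the largest called differences, so the separation of ER+ luminal from basal values is no further support. In pregnancy the ER- luminal values of these 3 regions were 13.7, 9.10 and 27.3, above the basal ones in merged69045 and merged90649 and below it in merged92049.

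The regions called higher in basal cells showed the mirror of this. Region merged75932 had 135, 179 and 79.2 in basal and 25.8, 33.4 and 6.78 in ER+ luminal cells (log2 difference -2.70, SE 0.50, limma adjusted p = 0.000299). Region merged106366 had 339, 249 and 196 in basal and 74.7, 33.4 and 35.6 in ER+ luminal cells (log2 difference -2.48, SE 0.40, limma adjusted p = 8.39e-05). Region merged8797 had 177, 132 and 125 against 22.6, 30.8 and 27.1 (log2 difference -2.38, SE 0.41, limma adjusted p = 0.000169). In none of them did basal and ER+ luminal values overlap, which is no further support, as they were picked in the same way. In pregnancy their ER- luminal values were 16.7, 33.4 and 34.9, close to or above the ER+ luminal ones, so that basal cells alone stood out. Over the 61 regions the pregnancy medians were 83.6 for basal, 27.1 for ER+ luminal and 19.7 for ER- luminal cells, and 14 of the 61 kept the gap. Over the 22 regions they were 21.99, 50.0 and 14.4, and 7 kept it.

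**Figure D5:**
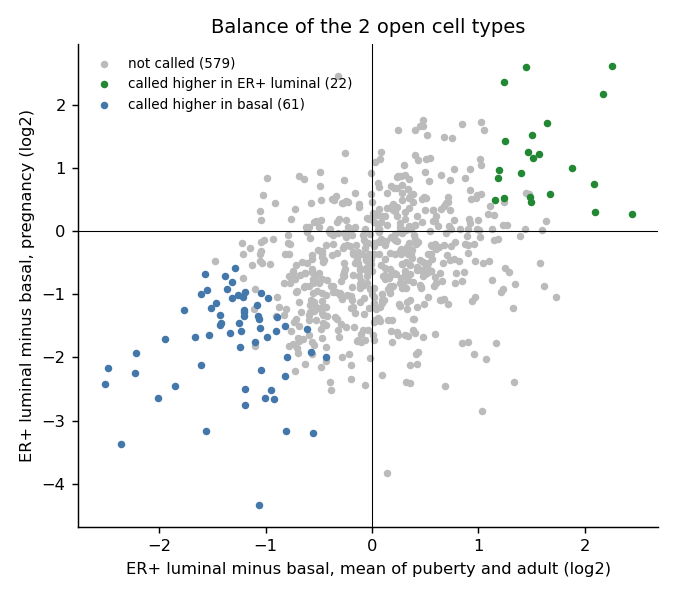
ER+ luminal minus basal signal in log2 units for each of the 662 regions, as the mean of puberty and adult (x axis) and in pregnancy (y axis), with the 22 regions called higher in ER+ luminal cells in green, the 61 called higher in basal cells in blue and the others in grey. Most points lie below 0 on the y axis, with basal cells higher in 467 regions in pregnancy.

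Between adult and puberty no region of the 662 passed the test, where 0.0016% of all regions were called higher in adults and 0.0% lower by limma. At an unadjusted p under 0.05 limma found 25 of the 662. On the recovered reads edgeR and DESeq2 also called 0, with 26 each at an unadjusted p under 0.05, and limma with library weights called 1. With so few calls over all regions, the count of 0 says little about the 662. The rule also set the same limits at both stages, and what that does to the changes was not tested. The median log2 change from puberty to adult was 0.19 for basal, -0.13 for ER+ luminal and -0.25 for ER- luminal cells. Basal cells were at least 2-fold higher in adults at 49 regions, or 7.40%. The share was 12.2% over all regions and 4.83% over the others past the level. ER- luminal cells were at least 2-fold lower at 98, or 14.8%, against 9.44% and 3.0% in the same order. They were higher at 28, or 4.23%, against 12.9% and 1.61%. ER+ luminal cells were at least 2-fold lower at 41, or 6.19%, against 8.64% and 2.23%.

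Pregnancy was also set against the mean of the earlier stages over the 3 cell types. Limma called 93 of the 662 regions lower in pregnancy and 1 higher, where 4.83% and 2.06% of all regions were called. The early values chose the regions, so nothing is read from these shares or calls. The calls only pick the regions named below, which are given by their values and fitted differences, with no p. The 94 calls became 44 without the puberty ER- luminal, 43 without the puberty ER+ luminal, 30 without the adult basal, 59 without the adult ER+ luminal, 55 without the pregnancy basal and 31 without the pregnancy ER+ luminal library.

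Region merged25826 had 41.95 and 46.6 in basal cells at puberty and in adults, 79.4 and 53.9 in the ER+ luminal libraries and 13.6 and 11.1 in the ER- luminal ones. In pregnancy it had 5, 4 and 0 reads in this order, the last taken by the same fixed setting to allow up to 3 reads. Region merged58504 had 115 and 161 in basal cells, 239.8 and 209 in the ER+ luminal libraries and 43.0 and 29.7 in the ER- luminal ones, and 35.2, 15.3 and 9.10 in pregnancy. In these libraries both had their lowest values in pregnancy in every cell type, ER- luminal cells included. Region merged116546 had 168 and 88.1 in ER+ luminal cells and 3.39, from 2 reads, in pregnancy. Its fitted log2 difference was -2.26, and -0.98 and no longer called without the pregnancy ER+ luminal library.

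The only region called higher in pregnancy was merged15587, and the call is a description, since the early values chose the regions. At puberty, in adults and in pregnancy it had 41.2, 69.5 and 106 in basal cells, 43.6, 83.0 and 83.1 in the ER+ luminal libraries and 5.74, 21.5 and 69.8 in the ER- luminal ones. ER- luminal cells had 8, 29 and 46 reads. The fitted log2 difference was 1.32. It was 1.29 without the adult basal and 1.49 without the pregnancy basal library, and 1.05 and 0.71 without the puberty and pregnancy ER- luminal libraries, with the call lost in all 4 cases.

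The same rule with the cell types exchanged gave larger sets. In all, 4067 regions were low in ER+ luminal cells alone and 2555 in basal cells alone. In pregnancy 34.2% and 21.8% of them still had a gap of at least 1, with median gaps of 0.70 and 0.45, beside 27.6% and 0.53 for the ER- luminal set. The matching shares over all regions were 8.08%, 8.16% and 8.25%. Whether these shares differ was not tested, since each comes from the same 3 libraries.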

How the data were processed

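Accessible regions were measured by ATAC-seq in 9 libraries, and the authors deposited 1 table of signal, named as normalized counts, for 124860 regions. MACS2 2.1.0.20151222, Picard, SAMtools and Bowtie2 2.2.6 are listed in the submitters' processing notes, with the build GRCm38 (mm10). The merging of peaks, the counting and scaling of reads and any shift for the Tn5 cut are not given in the sources used here. In each library the deposited signal moved in equal steps, with 100% of values within 0.02 of a whole number of steps, and a step was taken as 1 read.

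Tests used limma 3.58.1 (R 4.3.3) on log2(value + 1), with cell type and stage as additive terms over 9 libraries, a variance trend, no filter on low values and Benjamini-Hochberg adjustment over all regions. On that scale the fold of a dim region is understated. With 4 residual degrees of freedom, the error is the departure of libraries from additive effects, which includes a gap that changes with stage, and not the spread between mice. edgeR 4.0.16 and DESeq2 1.42.0 on recovered reads were alternatives. The models were tested on simulated data.

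Regions were named by rank: the 6 with the largest pregnancy gap (among those at 20 or more in basal and ER+ luminal cells in pregnancy), the 6 with ER- luminal cells furthest above both others in pregnancy (among those at 20 or more in ER- luminal cells), the 4 brightest, the 3 with the largest value of the smaller early gap, 3 on each side of the threshold, and the first 3 called in each direction of each comparison. The regions, rules and comparisons were chosen with earlier results of these data known. No sequence is printed because the table ties no region to a position.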

Additional observations from a re-analysis of the deposited data

Results flagged for a closer look

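Between stages, the median changes of the 662 regions went in opposite directions in some cell types. With 1 library behind each median, none of these differences was tested. From puberty to adult the median log2 change was 0.19 for basal cells and -0.25 for ER- luminal cells, a distance of 0.45. From adult to pregnancy ER- luminal cells had 0.35 and ER+ luminal cells -1.01, a distance of 1.36. From puberty to pregnancy these were 0.07 and -1.21, a distance of 1.29, with the ER- luminal median close to 0. The puberty and adult values chose the regions, which sets part of the changes to pregnancy.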

How the results depend on the processing

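The share of regions with a gap of at least 1 in pregnancy was 27.6%, and the median gap 0.53. The share was 22.6% with a pseudocount of 4, 37.1% (median 0.72) among regions at 20 or more in basal and ER+ luminal cells in pregnancy, 19.6% (0.32) with regions chosen at puberty alone, 22.3% (0.35) in adults alone, 42.0% (0.71) with an early gap of at least 2, 33.8% (0.72) at equal total signal and 31.4% after quantile normalization. Against 1 other cell type alone, an alternative chosen after seeing the data, it ranged from 36.1% to 61.8% (median 0.68 to 1.24). The share of all regions ranged from 4.08% to 10.8% over these settings and reads thinned to equal depth, leaving aside the comparisons with 1 cell type, and was below that of the chosen regions in each. Over all regions the median pregnancy gap moved from -0.41 to -0.29 at equal total signal and to -0.52 after quantile normalization, so the gaps are best read against it.

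Calls between ER+ luminal and basal cells numbered 83, 136 with library weights and 21 to 118 with 1 library left out. Between adult and puberty they numbered 0, 1 with library weights and 0 with any 1 library left out. For pregnancy against the earlier stages they numbered 94, 59 after quantile normalization, 54 with edgeR, 52 with library weights and 30 to 108 with 1 library left out. The 6 regions named between ER+ luminal and basal cells kept direction and call in all 16 alternatives. Of the 12 pregnancy gaps named, that of merged71492 changed sign, to 0.02 at equal total signal. No pairing of replicates was possible because each cell type and stage had 1 library, while libraries of 1 stage or 1 cell type are already matched in the additive fit. In pregnancy the median region had 11 reads in ER- luminal cells, which limits the precision of single regions. With the regions kept as chosen at full depth, thinning to equal depth gave a share of 28.9%. It evens out the pregnancy libraries only, so it cannot show what their shallow depth does to the share.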
